A study of Homo sapiens with 12 samples.

Results

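The 6 CXC chemokine genes CXCL1, CXCL2, CXCL3, CXCL5, CXCL6 and CXCL8 were followed in RNA-seq of A375 cells, a human melanoma line. They are 6 of the 20263 genes in the deposited table, found by symbol. CXCL2 and CXCL8 had been seen among the genes with the largest rise under DdBIC and the largest fall when hemin was added. The 6 were then chosen by name as chemokines that draw neutrophils. Their values in those comparisons, in DdBIC+Hemin against Ctrl and in the interaction, which reuse the same libraries, are therefore given as a description, without a test. The 12 libraries form 4 groups of 3. All groups are unedited (wild-type) A375 cells from 1 established line. The Ctrl group received neither agent, the DdBIC group received dodecyl 1H-benzo[d]imidazole-5-carboxylate (written DBIC in the sample labels), the Hemin group received hemin, and the DdBIC+Hemin group received both. DdBIC is a compound that triggers pyroptosis, a lytic form of cell death, and hemin, an oxidized form of heme, was added because it counteracts that death, so the groups ask how transcription moves with each. Dose and exposure time of these libraries are not given in the sources used here. The study's general statement on statistics speaks of independent experiments, but neither the sample labels nor the methods say so of these libraries in particular, so p-values measure the spread between these samples, part of which may be technical.

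The 6 genes encode small secreted proteins with the glutamate-leucine-arginine (ELR) motif before their paired cysteines, which marks the CXC chemokines that act on the receptors CXCR1 and CXCR2 of neutrophils. CXCL8 (interleukin 8) is the best known of them. CXCL1 was first described as melanoma growth stimulatory activity. CXCL2 and CXCL3 are its close paralogs, and CXCL5 and CXCL6 are a pair of more distant relatives. Their transcription is classically switched on by NF-kB together with AP-1 and C/EBP factors, and their mRNAs are kept short-lived by proteins that bind AU-rich elements in the 3′ untranslated region.

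The stretch before each gene's start is shown because the genes that were induced and the genes that stayed silent share the same letters there. The 150 bases before the RefSeq start (GRCh38.p14) of the 6 genes, each read 5′ to 3′ on the gene's own strand, carry in capitals the letters GGAATTTCC, the core of an NF-kB site, and in CXCL8 also TGACTCA, the AP-1 letters. These motifs were picked after the sequences had been seen.
CXCL1, chr4:73869243-73869392, plus strand: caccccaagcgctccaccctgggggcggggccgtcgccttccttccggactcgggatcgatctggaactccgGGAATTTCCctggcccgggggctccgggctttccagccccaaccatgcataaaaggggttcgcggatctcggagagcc
CXCL2, chr4:74099196-74099345, minus strand: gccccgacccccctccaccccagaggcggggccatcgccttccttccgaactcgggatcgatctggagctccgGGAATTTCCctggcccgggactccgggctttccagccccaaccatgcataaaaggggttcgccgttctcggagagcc
CXCL3, chr4:74038690-74038839, minus strand: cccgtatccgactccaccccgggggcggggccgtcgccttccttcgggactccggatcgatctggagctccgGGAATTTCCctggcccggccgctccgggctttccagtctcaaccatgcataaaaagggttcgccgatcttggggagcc
CXCL5, chr4:73998678-73998827, minus strand: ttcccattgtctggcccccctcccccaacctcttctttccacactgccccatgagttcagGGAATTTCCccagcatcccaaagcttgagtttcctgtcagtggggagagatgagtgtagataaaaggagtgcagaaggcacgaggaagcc
CXCL6, chr4:73836528-73836677, plus strand: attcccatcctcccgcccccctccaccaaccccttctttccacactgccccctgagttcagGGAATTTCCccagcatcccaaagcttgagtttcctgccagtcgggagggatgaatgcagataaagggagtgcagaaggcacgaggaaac
CXCL8, chr4:73740419-73740568, plus strand: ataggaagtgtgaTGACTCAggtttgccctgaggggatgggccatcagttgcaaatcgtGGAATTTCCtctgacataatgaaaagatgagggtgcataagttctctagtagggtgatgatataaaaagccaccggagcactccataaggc
GGAATTTCC stood in 6 of the 6 promoters, on the strand of the gene. Its first base was at position -78 in CXCL1 and CXCL3, -77 in CXCL2, -90 in CXCL5, -89 in CXCL6 and -91 in CXCL8, counted from the RefSeq start. In RefSeq's 35116 promoter windows of 300 bases (250 before the start and 50 after it), 162 windows, or 0.461%, held these letters on either strand. The longer NF-kB consensus was in 5 of the 6 (all but CXCL8) and in 11.3% of all windows, and it overlaps the shorter core. The AP-1 letters TGANTCA were in 1 of the 6, CXCL8, and in 7.71% of all windows. TATAAA was in CXCL8 at -31 and in 11.5% of all windows, and ATAAAA, which overlaps it there, was in 5 of the 6 (all but CXCL6) and in 16.0%. The GC box letters GGGCGG were in CXCL1, CXCL3 and CXCL6 and in 45.0% of all windows. Each motif was searched on both strands. A match is a description of letters, not of a factor bound there. The gene boundaries in the deposited table begin upstream of the RefSeq start for CXCL2, CXCL5, CXCL6 and CXCL8, so the whole stretch of CXCL6 and part of those of CXCL2, CXCL5 and CXCL8 lie inside the table's own gene model.

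The promoters fell into 3 kinds. CXCL1, CXCL2 and CXCL3 were 83.3% to 86.8% identical to each other over the aligned bases of the 250 before the start. CXCL5 and CXCL6 were 85.9% identical. CXCL8 was 53.2% to 58.3% identical to the other 5. Coding sequences (GENCODE 29) divided likewise, with 93.5% identity between CXCL1 and CXCL2, 90.7% between CXCL1 and CXCL3, 94.4% between CXCL2 and CXCL3 and 87.5% between CXCL5 and CXCL6, against 59.7% to 64.4% between CXCL8 and the other 5. Such paralogs can share reads. Of all 50-base windows of a transcript, 5.73% for CXCL1, 9.24% for CXCL2 and 5.26% for CXCL3 occurred letter for letter in another member of the trio, none for CXCL8, and no window of 100 bases was shared by any of the 6. How the counting treated reads that fit more than 1 gene is not given in the sources used here, so the exact split of counts among CXCL1, CXCL2 and CXCL3 is uncertain to that extent.

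The depth was similar in all libraries, at 37951275 to 44358912 counts, and no pair of libraries held identical counts. Values below are CPM, counts scaled to a common library total, from the deposited counts with library sizes scaled by TMM, a normalization that centres the bulk of the genes. SOX10, a neural crest and melanocyte factor, was at 634 CPM in Ctrl, whereas the pigment genes PMEL, MLANA and DCT were below 1 CPM there. Of the 9 melanocyte and melanoma markers 8 were tested, and under DdBIC 2 rose and 3 fell by edgeR's test, beside 20.0% and 17.2% of all tested genes. The rises were PMEL (log2 fold change 0.90, adjusted p = 0.0276) and SOX10 (0.23, adjusted p = 0.00254), and the largest fall was that of S100B, a calcium-binding protein of melanocytes (-0.36, adjusted p = 0.0210). The summed level of the 9 was 1287 to 1325 CPM in Ctrl, 1296 to 1366 in DdBIC, 1236 to 1259 in Hemin and 1229 to 1331 in DdBIC+Hemin. Of 10 neutrophil and myeloid markers, PTPRC, S100A8, S100A9, ELANE, CSF3R and FCGR3B had 0 counts in all 12 libraries, and the summed level of the 10 was 2.25 to 3.23 CPM in Ctrl, 2.17 to 3.45 in DdBIC, 2.23 to 2.43 in Hemin and 2.24 to 2.81 in DdBIC+Hemin. The summed level of 4 endothelial markers was 4.74 to 6.95 CPM in Ctrl, 5.15 to 5.87 in DdBIC, 5.11 to 6.11 in Hemin and 5.31 to 6.36 in DdBIC+Hemin. That of 3 keratinocyte markers was 2.71 to 3.65, 2.62 to 3.50, 3.09 to 3.92 and 3.56 to 3.78 CPM in the same order. The keratinocyte sums of DdBIC and DdBIC+Hemin did not overlap, and the ranges of Ctrl and DdBIC overlapped for all 3 of these lists, whereas the summed level of the 6 chemokines was 38.4 to 43.2 CPM in Ctrl and 1125 to 1310 CPM in DdBIC. Of the 7 tested markers of these 3 lists, 1 rose and none fell under DdBIC by edgeR's test, beside 20.0% and 17.2% of all tested genes. CDH5 (VE-cadherin, an endothelial adhesion molecule) rose from 0.133 to 0.601 CPM (log2 fold change 2.14, adjusted p = 0.0211) and was at 0.201 CPM in Hemin and 0.612 CPM in DdBIC+Hemin, which against DdBIC was a log2 fold change of 0.03 (adjusted p = 0.978). Its part in the chemokine values was not tested. In bulk RNA, fewer cells expressing a gene and less RNA of it per cell cannot be told apart.

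Of the 6 genes, 4 (CXCL1, CXCL2, CXCL3 and CXCL8) passed the filter on low counts, each with 11 counts or more in every library. CXCL5 had 0 counts in all 12 libraries. CXCL6 had 2 counts in DdBIC+Hemin replicate 3 and 0 in the other 11. A count of 0 allows up to 3 counts in a library, so expression of CXCL5 and CXCL6 was not detectable at this depth in any group, including the group in which the other 4 genes were at their highest.

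CXCL8 went from a modest level to a very high one under DdBIC. Its level in Ctrl was 9.03, 8.67 and 9.75 CPM in replicates 1, 2 and 3, and in DdBIC it was 713, 599 and 703 CPM. In Hemin it was 5.44, 6.80 and 6.54 CPM, and in DdBIC+Hemin 35.7, 20.3 and 24.7 CPM. The 4 groups did not overlap, DdBIC stood far above the rest, and Hemin was the lowest. The means were 9.15 ± 0.551 CPM in Ctrl and 671 ± 63.2 CPM in DdBIC (SD, n = 3), which is a 73.4-fold difference and a log2 fold change of 6.20 ± 0.22 (standard error).

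CXCL1 was already well expressed in untreated cells. Its level in Ctrl was 28.4, 33.7 and 30.0 CPM, and in DdBIC 479, 427 and 426 CPM. In Hemin it was 23.6, 25.9 and 24.5 CPM, and in DdBIC+Hemin 39.4, 33.8 and 40.3 CPM. Again no pair of groups overlapped, and the gap between DdBIC+Hemin and Ctrl was narrow. The means of 30.7 ± 2.72 CPM in Ctrl and 444 ± 30.6 CPM in DdBIC (SD, n = 3) differed 14.5-fold, a log2 fold change of 3.85 ± 0.09, the smallest among the 4 genes.

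CXCL2 and CXCL3 were close to silent without DdBIC. CXCL2 had 25, 18 and 18 counts in Ctrl (0.620, 0.453 and 0.461 CPM) and 3709, 3144 and 3493 counts in DdBIC (95.5, 77.4 and 82.6 CPM). It had 27, 18 and 11 counts in Hemin (0.683, 0.445 and 0.288 CPM) and 85, 40 and 54 counts in DdBIC+Hemin (2.10, 0.994 and 1.23 CPM). Hemin overlapped Ctrl, and both DdBIC groups lay above both groups without DdBIC. CXCL2 had the largest relative rise of the 4, 166-fold or 7.37 ± 0.30 on the log2 scale, from 0.511 ± 0.0944 to 85.1 ± 9.34 CPM (SD, n = 3).

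CXCL3 had 16, 16 and 22 counts in Ctrl (0.397, 0.403 and 0.563 CPM) and 881, 884 and 908 counts in DdBIC (22.7, 21.8 and 21.5 CPM). It had 29, 13 and 22 counts in Hemin (0.734, 0.322 and 0.575 CPM) and 64, 38 and 38 counts in DdBIC+Hemin (1.58, 0.945 and 0.867 CPM). As for CXCL2, DdBIC was the highest group, DdBIC+Hemin came next, and Hemin and Ctrl overlapped below them. The rise under DdBIC was 48.4-fold, a log2 fold change of 5.59 ± 0.28.

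**Figure D1:**
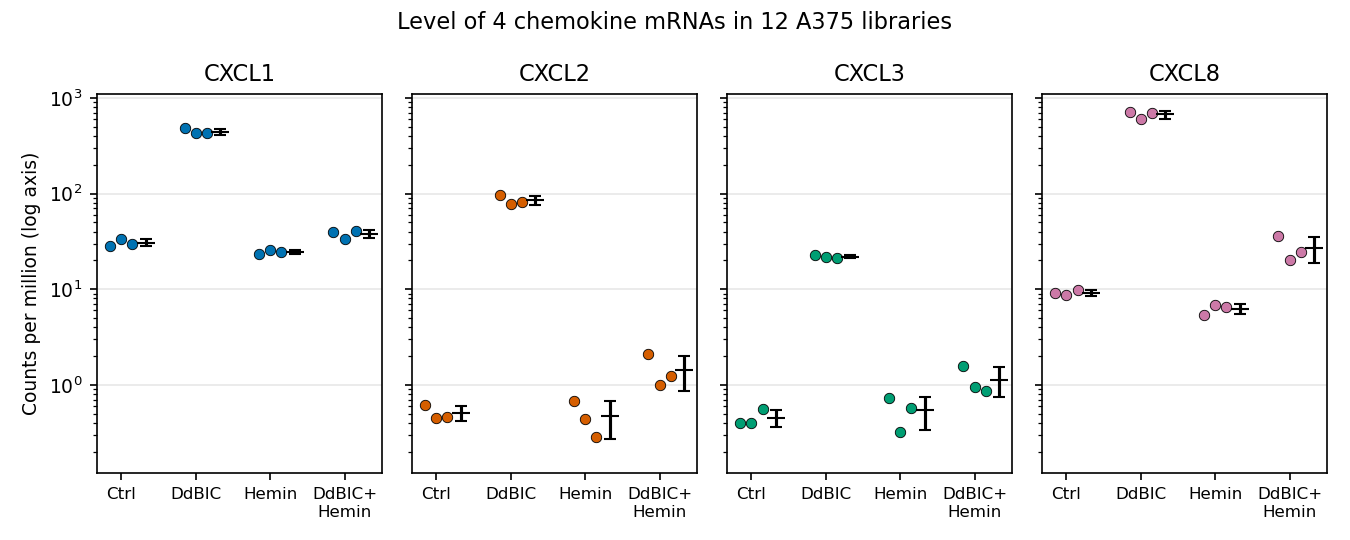
CPM (log axis) of CXCL1, CXCL2, CXCL3 and CXCL8 in the 12 libraries; each point is a library, ordered by replicate number, and the bar beside each group is the mean with its SD (n = 3). In every panel the 3 DdBIC libraries are the highest, CXCL2 and CXCL3 are near or below 1 CPM without DdBIC, and DdBIC+Hemin lies far below DdBIC.

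Length-scaled values (TPM, as deposited, with a gene length that differed between libraries) allow the genes to be ranked against each other. In Ctrl the order was CXCL1 at 58.3 ± 4.91 TPM, CXCL8 at 12.4 ± 0.821 TPM, CXCL2 at 0.855 ± 0.170 TPM and CXCL3 at 0.843 ± 0.177 TPM (SD, n = 3), and the last pair overlapped. In DdBIC the order was CXCL8 at 900 ± 86.6 TPM, CXCL1 at 843 ± 55.03 TPM, CXCL2 at 146 ± 15.7 TPM and CXCL3 at 42.5 ± 1.05 TPM, and here the first pair overlapped. CXCL8 thus drew level with CXCL1. CXCL1 made up 80.4% of the summed TPM of the 6 genes in Ctrl and 43.7% in DdBIC, while the share of CXCL8 went from 17.2% to 46.6%. In Hemin the order was CXCL1 (46.5 TPM), CXCL8 (9.05 TPM), CXCL3 (1.03 TPM) and CXCL2 (0.778 TPM), and in DdBIC+Hemin it was CXCL1 (70.2 TPM), CXCL8 (36.0 TPM), CXCL2 (2.40 TPM) and CXCL3 (2.11 TPM), with the last pair overlapping in both. Among all genes of a library ordered by TPM, CXCL8 stood at places 7966 to 8280 in Ctrl and 138 to 158 in DdBIC, and CXCL1 went from places 2876 to 3345 to places 146 to 158. Together the 6 genes held 0.00389% to 0.00434% of a library's counts in Ctrl and 0.111% to 0.130% in DdBIC.

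Over the whole table, 20.0% of the 14287 tested genes were higher in DdBIC than in Ctrl and 17.2% were lower by edgeR's quasi-likelihood test with Benjamini-Hochberg adjustment, and in 25.9% the 3 DdBIC libraries lay above the 3 Ctrl libraries, as they did for the 4 members. The members were chosen with this comparison known, so nothing is read from these shares. Among the 14287 log2 fold changes ordered from the highest, CXCL2 was at place 5, CXCL8 at 13, CXCL3 at 17 and CXCL1 at 38. The median of the 4 was 5.89, beside -0.01 over all tested genes.

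Adding hemin to DdBIC brought the 4 genes most of the way back. The log2 fold change of DdBIC+Hemin against DdBIC was -5.88 ± 0.27 for CXCL2, -4.64 ± 0.20 for CXCL8, -4.28 ± 0.25 for CXCL3 and -3.55 ± 0.09 for CXCL1 (standard errors). The level in DdBIC+Hemin was 1.69% of that in DdBIC for CXCL2, 4.01% for CXCL8, 5.15% for CXCL3 and 8.53% for CXCL1. The median was -4.46 beside -0.01 over all genes. Over all tested genes 18.4% were lower and 13.5% higher by edgeR's test, and in 24.4% the DdBIC+Hemin libraries lay below those of DdBIC without overlap, as they did for the 4 members. This comparison, too, was known when the members were chosen, so nothing is read from these shares.

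Hemin alone was a comparison on which the members had not been picked, although it shares the Ctrl libraries with one on which they had. None of the 4 passed the test (edgeR, adjusted p over 14287 genes, where 2.59% were lower and 1.47% higher). CXCL1 had a log2 fold change of -0.31 ± 0.08 (adjusted p = 0.0612) and CXCL8 of -0.55 ± 0.20 (adjusted p = 0.210). For both, the 3 Hemin libraries lay below the 3 Ctrl libraries, as they did in 12.9% of tested genes. CXCL2, at -0.11 ± 0.40 (adjusted p = 0.935), and CXCL3, at 0.26 ± 0.32 (adjusted p = 0.773), overlapped between the groups. The calls of CXCL1 and CXCL8 depended on the method. With DESeq2 the adjusted p was 0.0120 for CXCL1 and 0.0300 for CXCL8, CXCL8 also passed when only the 2 groups were fitted (0.0473), and CXCL1 also passed without DdBIC+Hemin replicate 2 (0.0341) and CXCL8 without DdBIC+Hemin replicate 1 (0.0364).

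The members were still higher with DdBIC when hemin was present. In DdBIC+Hemin against Hemin, which shares no library with DdBIC against Ctrl but shares the DdBIC+Hemin libraries with the other known comparison, 3 of the 4 tested members were higher by edgeR's test, where 3.71% of tested genes were higher. CXCL8 was 4.30-fold higher (log2 fold change 2.10 ± 0.20, adjusted p = 0.000320), CXCL2 3.06-fold (1.60 ± 0.34, adjusted p = 0.0196) and CXCL1 1.53-fold (0.62 ± 0.08, adjusted p = 0.00129). CXCL3, at 2.08-fold (1.05 ± 0.29), missed the threshold with an adjusted p of 0.0543. For all 4 the 3 DdBIC+Hemin libraries lay above the 3 Hemin libraries, as in 13.2% of tested genes. The median of the 4 was 1.33, beside 0.00 over all tested genes. CXCL2 lost its call when only the 2 groups were fitted (adjusted p = 0.0851) and without Hemin replicate 2 (0.0767) or replicate 3 (0.0716), whereas CXCL3 passed with DESeq2 (0.00411), without Hemin replicate 1 (0.0433) and without DdBIC+Hemin replicate 3 (0.0451). CXCL8 and CXCL1 passed under every alternative run.

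The share of the rise that remained with hemin depended on the scale. On the log2 scale, the change under DdBIC with hemin was 33.9% of that without hemin for CXCL8, 21.7% for CXCL2, 18.8% for CXCL3 and 16.0% for CXCL1. On the linear CPM scale the share of the rise that remained was smaller and its order was another, at 3.18% for CXCL1, 3.12% for CXCL8, 2.73% for CXCL3 and 1.15% for CXCL2. These shares depend on single libraries. DdBIC+Hemin replicate 1 was the highest of its group for CXCL2 (2.10 CPM, then 0.994 and 1.23) and CXCL3 (1.58 CPM, then 0.945 and 0.867). The same held for CXCL8 (35.7 CPM, then 20.3 and 24.7). Without that library the linear shares of CXCL2, CXCL3 and CXCL8 would be lower. On that scale CXCL1 and CXCL8 are too close to be ordered. The log2 changes of DdBIC+Hemin against Hemin also moved when 1 library was left out. They ran from 1.845 to 2.269 for CXCL8, 1.23 to 1.96 for CXCL2, 0.735 to 1.33 for CXCL3 and 0.568 to 0.6905 for CXCL1. The log2 order of CXCL2, CXCL3 and CXCL1 is therefore uncertain. The interaction, which subtracts the change under DdBIC in cells without hemin from that in cells with hemin, was -5.77 ± 0.50 for CXCL2, -4.53 ± 0.41 for CXCL3, -4.09 ± 0.28 for CXCL8 and -3.24 ± 0.12 for CXCL1. The median was -4.31 beside -0.01 over all genes, and 10.2% of tested genes had an interaction below 0 past the threshold of edgeR's test. That share, and those of DdBIC+Hemin against Ctrl, are given as background only, since the members were chosen on libraries that enter both. The return to the untreated level was not complete. DdBIC+Hemin exceeded Ctrl by 1.56 ± 0.19 for CXCL8, 1.49 ± 0.33 for CXCL2, 1.31 ± 0.30 for CXCL3 and 0.30 ± 0.08 for CXCL1 on the log2 scale. The 3 libraries of each group did not overlap for any of the 4. Over all tested genes, 5.66% were higher past the threshold and 15.3% had non-overlapping higher libraries.

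**Figure D2:**
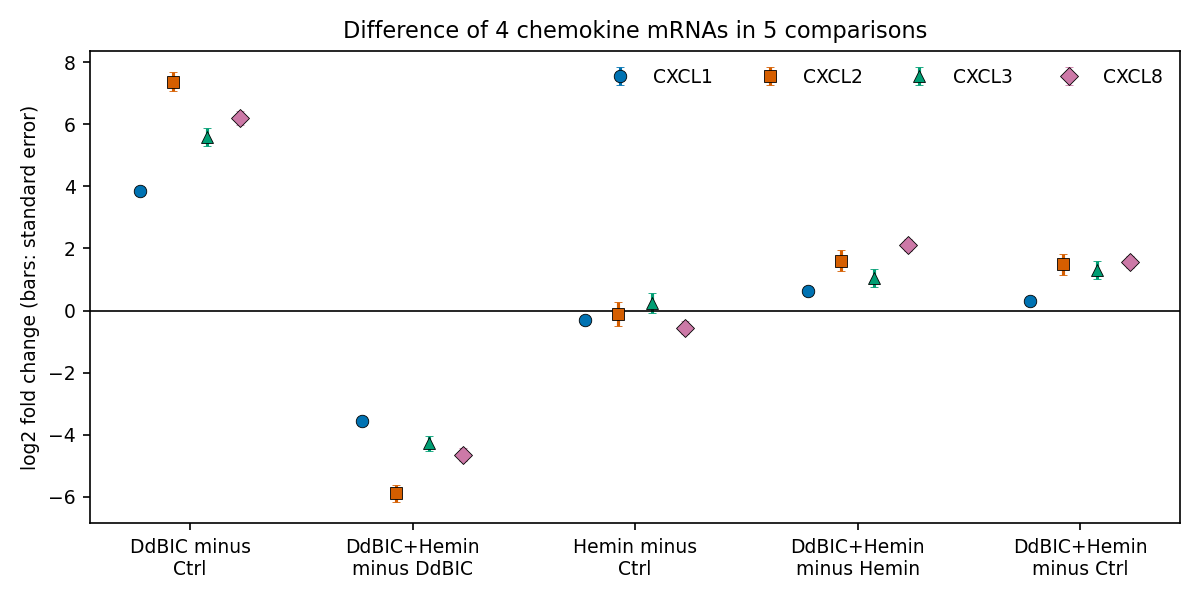
Log2 fold change (vertical axis) with its standard error (bars) of CXCL1, CXCL2, CXCL3 and CXCL8 in 5 comparisons. The values run from 3.85 to 7.37 for DdBIC minus Ctrl, from -5.88 to -3.55 for DdBIC+Hemin minus DdBIC, lie around 0 for Hemin minus Ctrl and run from 0.62 to 2.10 for DdBIC+Hemin minus Hemin.

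**Figure D3:**
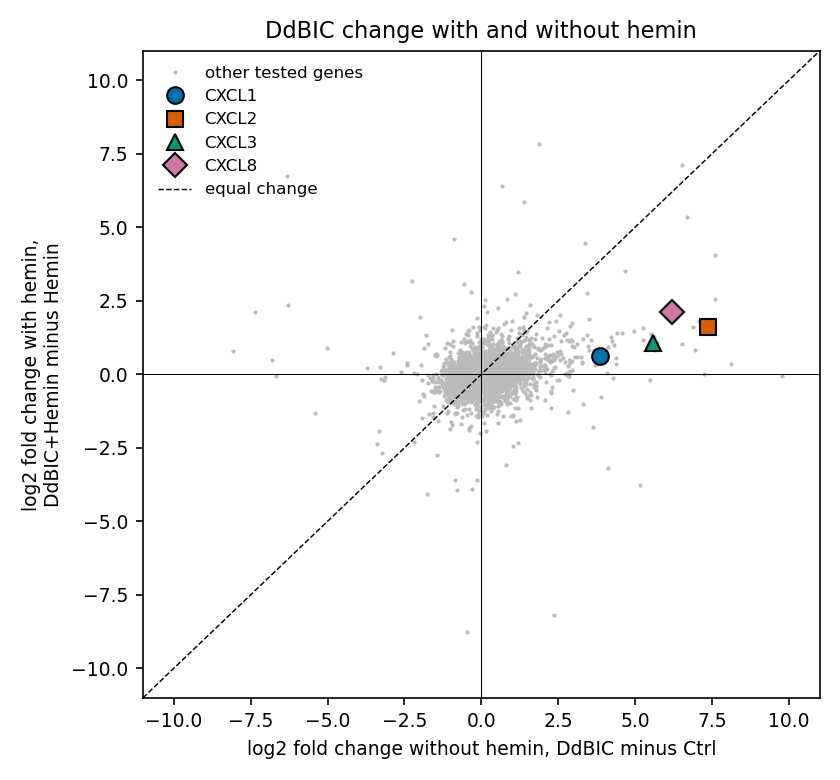
Log2 fold change of each tested gene under DdBIC without hemin (horizontal axis) and with hemin (vertical axis), with the 4 chemokine genes marked and a dashed line of equal change. The 4 lie far to the right of the other genes' bulk and well below the line, between 0.62 and 2.10 on the vertical axis.

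The 6 genes lie in 1 cluster on chromosome 4, which spans chr4:73740506-74099293 (359 kb, GRCh38) in the deposited table. In order they are CXCL8, CXCL6 and CXCL1 on the plus strand and CXCL5, CXCL3 and CXCL2 on the minus strand. The induced genes were not neighbours of each other alone. CXCL6, PF4V1, PF4, PPBP and CXCL5 stand between or beside them, and 4 of these 5 had 0 counts in all 12 libraries. PF4, PPBP and PF4V1 encode platelet chemokines. Within the span 4 of 9 genes were tested, and those 4 were the induced members. In the 500 kb to either side, which makes 17 genes in all, 2 more genes had enough counts. MTHFD2L, a mitochondrial folate enzyme whose start is 374 kb from that of CXCL8 and which lies directly beyond CXCL2, was at 3.83 ± 0.356 CPM in Ctrl and 4.12 ± 0.353 CPM in DdBIC (log2 fold change 0.11, edgeR adjusted p = 0.504).

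AREG, which encodes the EGF receptor ligand amphiregulin and starts 705 kb from CXCL8, was at 1.19, 1.39 and 1.08 CPM in Ctrl, 6.33, 6.03 and 5.01 CPM in DdBIC, 2.02, 2.15 and 2.04 CPM in Hemin and 3.43, 3.26 and 3.19 CPM in DdBIC+Hemin. The groups did not overlap. It rose under DdBIC (log2 fold change 2.25 ± 0.13, edgeR adjusted p = 2.20e-07) and also under hemin alone (0.77 ± 0.13, adjusted p = 0.00804), in which none of the chemokines passed. It was lower in DdBIC+Hemin than in DdBIC (-0.81 ± 0.12, adjusted p = 0.000390). EREG and EPGN, which encode related ligands, had at most 10 and 4 counts in any library.

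**Figure D4:**
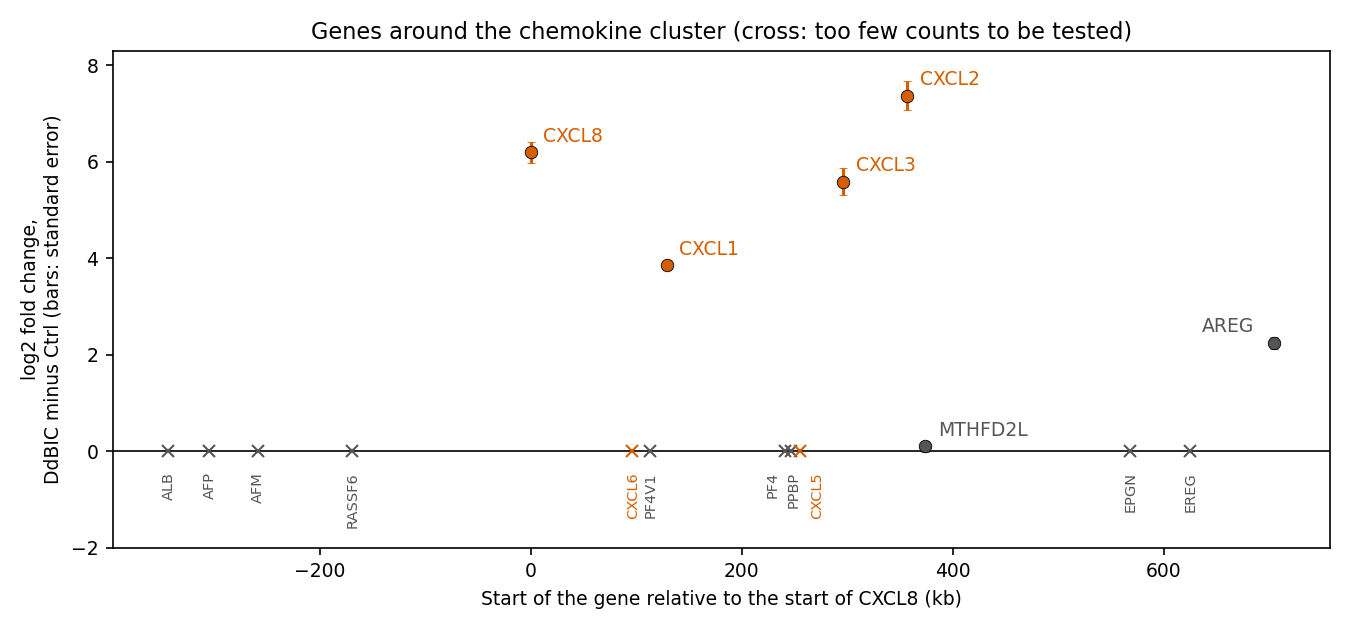
Log2 fold change of DdBIC minus Ctrl with its standard error (vertical axis) for 17 genes, by the distance of the gene's start from that of CXCL8 in kb (horizontal axis); orange marks the 6 chemokine genes and a cross marks a gene with too few counts to be tested. CXCL8, CXCL1, CXCL3 and CXCL2 stand between 3.85 and 7.37, 5 of the 11 untested genes lie between them and the others outside, and MTHFD2L beyond CXCL2 is at 0.11.

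The gene lists from here on were, like the members, chosen with earlier results of these data known. Their counts and p-values are therefore descriptive. Among 11 other CXC chemokines, 1 passed the filter and 7 had 0 counts in all libraries. The 1 was CXCL16, a transmembrane chemokine for a different receptor, at -0.23 (edgeR adjusted p = 0.185) under DdBIC. Of 22 CC, CX3C and XC chemokines, 5 were tested, 2 rose and 1 fell under DdBIC by edgeR's test (20.0% and 17.2% of all tested genes). CCL20, which draws dendritic cells and T helper 17 cells through CCR6, had 0, 3 and 10 counts in Ctrl and 133, 129 and 170 in DdBIC (log2 fold change 4.98, adjusted p = 0.000571). CCL2, the monocyte attractant, rose from 14.3 to 45.8 CPM (1.68, adjusted p = 1.40e-08). CCL28, a mucosal chemokine, fell by 0.51 on the log2 scale (adjusted p = 0.00821). In DdBIC+Hemin against DdBIC 2 of the 5 fell, where 18.4% of all tested genes did, CCL20 (-4.17, adjusted p = 0.00128) and CCL2 (-1.63, adjusted p = 2.61e-08).

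The receptors were hardly present. CXCR1 had 0 counts in all 12 libraries, and CXCR2 averaged 0.0336 CPM in both Ctrl and DdBIC, too few to be tested. ACKR1, the decoy receptor that binds these chemokines without signalling, was at 0.883 CPM in Ctrl (0.17 under DdBIC, edgeR adjusted p = 0.709). Of 7 other chemokine receptors 2 were tested and none passed in either of the 2 comparisons with the DdBIC group.

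Upstream of the chemokines, some cytokines and adaptors rose with DdBIC. Of 19 ligands, receptors and adaptors of the TNF, interleukin 1, interleukin 17 and Toll-like receptor routes, 16 were tested, and under DdBIC 6 rose and 1 fell by edgeR's test, beside 20.0% and 17.2% of all tested genes. TNF, the archetypal NF-kB activating cytokine, had 2, 0 and 2 counts in Ctrl and 303, 260 and 301 counts in DdBIC, a ratio of 208 per library count with an exact 95% interval of 81.0 to 765 that covers counting error only (adjusted p = 3.96e-06). TNF had 0 counts in the 3 Hemin libraries and 2, 0 and 4 in DdBIC+Hemin, so it was back at the limit of detection. IRAK2, a kinase below the interleukin 1 receptor, rose by 2.67 on the log2 scale (adjusted p = 1.71e-08), from 1.88 to 11.98 CPM. IL17RC, a subunit of the interleukin 17 receptor, fell by 0.20 (adjusted p = 0.0364). In DdBIC+Hemin against DdBIC 7 of the 16 fell and 2 rose, beside 18.4% and 13.5% of all tested genes. With hemin present, 2 of the 16 rose under DdBIC, beside 3.71% of all, and IRAK2 was one of them (0.57, adjusted p = 0.0106).

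All 16 NF-kB subunits, kinases and inhibitors of the list were tested. Under DdBIC 13 rose and none fell by edgeR's test, and in DdBIC+Hemin against DdBIC 13 fell and none rose. Over all tested genes the shares were 20.0% higher and 17.2% lower in the first comparison and 18.4% lower and 13.5% higher in the second. The median log2 fold change was 1.03 and -1.06. The largest rises were those of 2 inhibitors that NF-kB itself induces. TNFAIP3 (A20), a ubiquitin-editing enzyme, went from 3.91 ± 0.146 to 205 ± 19.0 CPM (log2 fold change 5.71, adjusted p = 2.15e-10), and NFKBIA (IkBa) from 19.2 to 154 CPM (3.01, adjusted p = 2.54e-05). Under hemin alone none passed, and with hemin present 3 rose under DdBIC (3.71% of all tested genes), TNFAIP3 among them (1.10, adjusted p = 0.000294). Of the 11 AP-1, EGR1 and C/EBP factors, 10 rose under DdBIC (20.0% of all tested genes) and 10 fell in DdBIC+Hemin against DdBIC (18.4% of all), and the exception in both was the AP-1 subunit FOSL2 (0.90, adjusted p = 0.158, and -1.20, adjusted p = 0.0764). The immediate early factor EGR1 went from 27.4 ± 3.31 to 2493 ± 352 CPM (6.51, adjusted p = 1.76e-09) and the AP-1 subunit JUN from 40.9 ± 1.57 to 1998 ± 262 CPM (5.61, adjusted p = 2.59e-10). Under hemin alone JUN rose (0.72, adjusted p = 0.00225), the 1 of the 11 that did, where 1.47% of all tested genes were higher, and with hemin present 8 of the 11 rose under DdBIC, beside 3.71% of all tested genes.

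Of 10 factors that set the stability of AU-rich mRNAs, 7 rose and 1 fell under DdBIC by edgeR's test, and 7 fell and 2 rose in DdBIC+Hemin against DdBIC. Over all tested genes the shares were 20.0% higher and 17.2% lower, then 18.4% lower and 13.5% higher. Whether the counts of this list differ from those shares was not tested. ZFP36 (tristetraprolin), which recruits the deadenylation machinery to chemokine mRNAs, rose from 11.6 to 227 CPM (4.29, adjusted p = 1.00e-05). Its DdBIC libraries were at 169, 361 and 149 CPM, so replicate 2 lifted that mean. ZC3H12A (regnase-1), an endonuclease of inflammatory mRNAs, rose from 7.96 to 61.6 CPM (2.95, adjusted p = 2.02e-10). HNRNPD (AUF1) fell by 0.12 (adjusted p = 0.0193). The letters ATTTA, which only some of these factors bind, stand in all 6 chemokine transcripts, the silent ones included. Counted in the 3′ untranslated region (GENCODE 29, the transcript with the longest coding sequence), ATTTA occurred 5 times in CXCL1, 10 times in CXCL2, 7 times in CXCL3, 9 times in CXCL8, 11 times in CXCL5 and 6 times in CXCL6. A single match of these letters is common. Over 18827 genes the median was 1, and 62.9% held at least 1. As many as in CXCL1 were found in 24.0% of genes, as in CXCL6 in 20.1%, as in CXCL3 in 16.7%, as in CXCL8 in 11.9%, as in CXCL2 in 10.1% and as in CXCL5 in 8.69%. The regions differ in length, and per kb CXCL2 had the most, at 13.9, then CXCL3 at 10.4, CXCL8 at 7.19, CXCL1 at 7.08, CXCL5 at 5.51 and CXCL6 at 5.36. Shares were also taken of genes with at least as many matches and, in addition, at least as many per kb. Since both had to hold, these shares cannot exceed those by count. They were 0.0106% for CXCL2, 0.154% for CXCL3, 0.366% for CXCL8, 1.22% for CXCL1, 1.03% for CXCL5 and 2.88% for CXCL6. They are not shares by density alone. CXCL5 had a lower density than CXCL1 but also a lower share, so they are a rough guide only. The longer form TTATTTATT was in CXCL1 (3 times), CXCL2 (5 times), CXCL3 (once) and CXCL8 (once), in neither CXCL5 nor CXCL6, and in 7.19% of all genes.

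Of 12 other inflammatory NF-kB targets 9 were tested, 9 rose under DdBIC (20.0% of all tested genes) and 9 fell in DdBIC+Hemin against DdBIC (18.4% of all) by edgeR's test. CSF2, which encodes the myeloid growth factor GM-CSF, had 8, 4 and 4 counts in Ctrl and 195, 199 and 245 in DdBIC (5.25, adjusted p = 9.09e-07), and BIRC3, an inhibitor of apoptosis that acts in TNF signalling, went from 0.960 to 36.5 CPM (5.24, adjusted p = 1.36e-08). With hemin present 6 of the 9 rose under DdBIC, beside 3.71% of all tested genes, BIRC3 among them (1.58, adjusted p = 0.00108). Of 8 proteases that trim these chemokines after secretion, 7 were tested, and their counts were close to the background of 20.0% higher and 17.2% lower. Under DdBIC 2 rose, MMP9 (gelatinase B, 1.90, adjusted p = 5.05e-05) and MMP1 (interstitial collagenase, 0.49, adjusted p = 0.0385), and 2 fell, with MMP2 (gelatinase A) the more at -0.52 (adjusted p = 8.22e-05).

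The genes whose levels ran most like those of each chemokine were sought among all tested genes other than the members with a mean of 1 CPM or more, by the mean absolute difference of log2 CPM from the Ctrl mean over the 12 libraries. For CXCL1 they were EGR3 (0.12), JUNB (0.17) and NR4A3 (0.23), which encode immediate early transcription factors. For CXCL2 they were EGR2 (0.36), EGR1 (0.48) and TNFAIP3 (0.60). For CXCL3 they were TNFAIP3 (0.28), BIRC3 (0.28) and FOS (0.40). For CXCL8 they were EGR1 (0.37), TNFAIP3 (0.37) and EGR2 (0.44). Between the chemokines themselves the measure was 0.48 for CXCL3 and CXCL8, 0.49 for CXCL2 and CXCL8, 0.70 for CXCL2 and CXCL3, 0.83 for CXCL1 and CXCL3, 0.98 for CXCL1 and CXCL8 and 1.28 for CXCL1 and CXCL2. The close sequence relatives CXCL1 and CXCL2 were thus the pair farthest apart, since the rise of CXCL1 was the smallest and that of CXCL2 the largest.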

How the data were processed

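Total RNA of A375 cells was sequenced in 12 libraries, which the labels place in 4 groups of 3. The submitters' processing notes name Trim Galore, Subread, featureCounts and build hg38, and versions, annotation release and use of strand are not given in the sources used here. The authors deposited 1 table of 20263 genes with a raw read count per library. The deposited TPM values are scaled by a gene length and to a common sum, and the deposited FPKM values by a gene length and depth. That length was not the same in every library. CXCL8 had 215 counts and 8.28 TPM in Hemin replicate 1, and 250 counts and 8.35 TPM in Hemin replicate 3. CXCL1 had 934 and 939 counts and 44.65 and 46.25 TPM in the same libraries. Ranks and shares by TPM carry these differences. FPKM was not used for any result. TPM served to rank genes within a library.

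The test on counts was that of edgeR 4.0.16 under R 4.3.3 (TMM, filterByExpr, which left 14287 genes, 1 mean per group, 8 residual degrees of freedom, quasi-likelihood F test, Benjamini-Hochberg adjustment over all tested genes, threshold 0.05). Log2 CPM used a prior count of 2. The fit was tested on simulated counts. Alternatives were DESeq2 1.42.0, upper-quartile or no scaling, no filter, 10 counts in every library, the compared groups alone, a replicate block and leaving out each library.

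The members and the gene lists were chosen with earlier results of these data known. Named were the 6 members, their receptors, other CXC chemokines and neighbouring genes that passed the filter, per list the 2 largest rises and the largest fall past the threshold in DdBIC against Ctrl, and the 3 genes nearest each member in pattern. FOSL2 was named after its values were seen, as an exception to its list's count, as were marker genes other than CDH5, PMEL, SOX10 and S100B and the counts of EREG and EPGN. The markers were given as a check of the cells. Promoters are RefSeq's (GRCh38.p14) and transcripts GENCODE 29, with all 6 members matched by symbol.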

Additional observations from a re-analysis of the deposited data

Results flagged for a closer look

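Here 5 results stood out because the change under DdBIC was not the same in the presence of hemin as in its absence. The change in its presence minus that in its absence was -3.24 for CXCL1, -5.77 for CXCL2, -4.53 for CXCL3 and -4.09 for CXCL8 on the log2 scale. These 4 genes were chosen with such values known, so the figures describe the members and no test is given. For AREG, the neighbour of the cluster, the difference was -1.58 (edgeR's interaction term, adjusted p = 0.000142). AREG also rose under hemin alone, where none of the 4 chemokines passed the threshold with edgeR, and whether its pattern differs from theirs was not tested.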

How the results depend on the processing

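The log2 fold changes of the 4 tested members kept their direction under all alternatives in every comparison except Hemin against Ctrl. There CXCL2 (-0.11) ran from -0.47 to 0.14 when 1 library was left out, with 0.05 without Ctrl replicate 1 and 0.14 without Hemin replicate 3, and CXCL3 (0.26) ran from -0.025 to 0.53, with -0.025 without Hemin replicate 1. Both genes have few counts there. DdBIC+Hemin replicate 1 had the highest CXCL2, CXCL3 and CXCL8 of its group. Leaving out 1 library in turn, the members' median ran from -4.75 to -4.32 in DdBIC+Hemin against DdBIC (-4.46 with all), from 0.983 to 1.64 in DdBIC+Hemin against Hemin (1.33 with all), from 1.05 to 1.55 in DdBIC+Hemin against Ctrl (1.40 with all) and from -4.60 to -4.18 in the interaction (-4.31 with all), and the end farthest from the full value came each time without that library.

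The number of genes past the threshold in Hemin against Ctrl was 580, and 272 to 623 when 1 library was left out, with 364, 341 and 292 without Ctrl replicate 1, 2 and 3 and 373, 272 and 338 without Hemin replicate 1, 2 and 3. In DdBIC+Hemin against Hemin it was 971, and 569 when only these groups were fitted and 612 to 934 when 1 library was left out, with 621 without Hemin replicate 1, 625 without Hemin replicate 3 and 612 without DdBIC+Hemin replicate 1. The share of higher genes among those past the threshold moved with the scaling. With upper-quartile factors it was 40.0% instead of 53.8% in DdBIC against Ctrl, 59.2% instead of 42.4% in DdBIC+Hemin against DdBIC and 55.4% instead of 38.5% in the interaction, and with library totals alone 42.3% instead of 54.6% in DdBIC+Hemin against Hemin and 34.4% instead of 45.6% in DdBIC+Hemin against Ctrl. The cause was not tested.

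Same-numbered libraries were only weakly alike. Their deviations correlated at -0.05 to 0.08 over 18 pairs, and those of other pairs between groups at -0.07 to 0.08. Still, 8 of 12 libraries correlated best with their own number, and whether that is more than chance was not tested. With the replicate number as a block, 5084 genes passed in DdBIC against Ctrl (5310 without it), 408 in Hemin against Ctrl and 776 in DdBIC+Hemin against Hemin, and no call of a member changed.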
